A study of Homo sapiens with 16 samples.

Results

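MIR17HG, MIR22HG and LOC284454 are 3 long RNAs from which microRNAs are cut. They are 3 of the 28374 genes with counts in a total RNA sequencing study of the CCD-1070Sk line, fibroblasts from normal human skin. They were selected on their counts in these data, which are higher after a mitogen, and the choice does not say which libraries it used. Every difference between a group with a mitogen and its group without one, with or without H89, is therefore given as a description, with no test. All groups were serum starved, and the 16 samples fell into 6 groups. The control was untreated at 0 h (4 samples, of which 2 held the same counts and were used once, leaving 3). Epidermal growth factor (EGF, 30 ng/ml) was given for 1 h in 3 samples, and TPA (100 nM), a phorbol ester that switches on protein kinase C, for 1 h in 2 samples. H89 (10 µM), a kinase inhibitor used by the study against the mitogen- and stress-activated kinases MSK, was given alone in 3 samples recorded at 0 h. The remaining groups were EGF with H89 (2 samples) and TPA with H89 (2 samples), each with H89 from 30 min before the mitogen and sampled at 1 h. H89 also inhibits protein kinase A. The groups without a mitogen were sampled at 0 h, so the mitogen and the hour of culture cannot be told apart.

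MicroRNAs are made from longer primary transcripts. The nuclear enzyme Drosha cuts out a hairpin, Dicer trims it to a short duplex, and an Argonaute protein carries 1 strand to messenger RNAs that pair with its seed, bases 2 to 8 of the mature microRNA. What is measured here is RNA assigned to the host genes, not the mature microRNAs, which this kind of library does not measure. MIR17HG is the host of the miR-17-92 cluster, known for promoting proliferation and for its control by MYC and E2F factors. MIR22HG is the host of miR-22, a microRNA described in growth arrest and stress. LOC284454 has the RefSeq symbol MIR23AHG, matched by its gene number, and is the host of miR-23a, miR-27a and miR-24.

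The mature microRNAs show how differently these 3 transcripts are equipped. They are printed from RefSeq (GRCh38.p14), 5′ to 3′, with the seed in capitals. The first 6 lie in MIR17HG, miR-22-3p in MIR22HG, and the last 3 in LOC284454.
miR-17-5p: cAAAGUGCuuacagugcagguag
miR-18a-5p: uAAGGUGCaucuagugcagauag
miR-19a-3p: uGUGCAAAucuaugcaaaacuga
miR-20a-5p: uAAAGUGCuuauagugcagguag
miR-19b-3p: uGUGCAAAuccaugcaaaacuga
miR-92a-3p: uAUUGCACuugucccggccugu
miR-22-3p: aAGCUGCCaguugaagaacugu
miR-23a-3p: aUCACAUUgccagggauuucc
miR-27a-3p: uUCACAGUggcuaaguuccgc
miR-24-3p: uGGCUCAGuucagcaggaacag

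The 6 microRNAs of MIR17HG carry 4 different seeds. miR-17-5p and miR-20a-5p share 1 seed and differ at 2 positions, C1U and C12U, counted from the 5′ end with the base of miR-17-5p first. miR-18a-5p differs from miR-17-5p at 6 positions, of which A4G lies in the seed. miR-19a-3p and miR-19b-3p share a seed and differ at 1 position, U11C, with the base of miR-19a-3p first. In the RefSeq table of 2370 mature human microRNAs, the seed of miR-17-5p and miR-20a-5p occurs in 8, while that of miR-22-3p occurs in 1 and that of miR-24-3p in 1. The 3 microRNAs of LOC284454 carry 3 different seeds. No seed is shared between the hosts. The 6 hairpins of MIR17HG lie at chr13:91350605-91351391 on the plus strand, and the 3 hairpins of LOC284454 lie at chr19:13836287-13836659 on the minus strand. The mature arms of miR-22 lie at chr17:1713914-1713973 on the minus strand. These coordinates are on GRCh38.p14, whereas the counts were made on hg19.

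The RefSeq promoters of the 3 hosts, from 250 bases before to 50 after the start, are shown because all 3 were chosen as higher after a mitogen. Capitals mark the cAMP response element half-site TGACG, the letters bound by CREB, a factor that MSK and protein kinase A phosphorylate, and the CCAAT box, each on either strand. The build is GRCh38.p14, and each run reads 5′ to 3′ on the strand of its gene.
MIR17HG chr13:91347437-91347736, plus strand: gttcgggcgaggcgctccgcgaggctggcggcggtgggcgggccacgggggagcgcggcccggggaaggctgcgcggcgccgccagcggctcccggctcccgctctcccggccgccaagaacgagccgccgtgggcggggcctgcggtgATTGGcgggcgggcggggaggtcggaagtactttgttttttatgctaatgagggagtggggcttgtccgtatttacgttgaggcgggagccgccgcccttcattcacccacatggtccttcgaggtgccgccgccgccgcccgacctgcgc
MIR22HG chr17:1716161-1716460, minus strand: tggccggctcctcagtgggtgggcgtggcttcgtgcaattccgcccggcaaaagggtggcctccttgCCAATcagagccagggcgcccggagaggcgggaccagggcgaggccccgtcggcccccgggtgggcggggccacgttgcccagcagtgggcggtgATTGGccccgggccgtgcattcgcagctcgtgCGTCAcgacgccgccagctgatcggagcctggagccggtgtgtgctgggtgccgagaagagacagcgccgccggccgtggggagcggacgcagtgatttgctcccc
LOC284454 chr19:13842869-13843168, minus strand: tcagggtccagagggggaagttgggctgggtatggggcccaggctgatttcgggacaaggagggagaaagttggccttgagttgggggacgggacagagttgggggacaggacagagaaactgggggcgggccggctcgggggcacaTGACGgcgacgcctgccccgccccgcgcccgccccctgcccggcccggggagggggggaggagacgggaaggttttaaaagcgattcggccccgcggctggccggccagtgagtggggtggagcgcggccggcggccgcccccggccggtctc

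All 3 windows are rich in G and C, at 73.0% in MIR17HG, 72.3% in MIR22HG and 72.3% in LOC284454. The half-site TGACG occurs once in MIR22HG, starting 56 bases before the start and read on the other strand as CGTCA, and once in LOC284454, 103 bases before the start. It has no match in the MIR17HG window and a match in 24.6% of all 35116 promoters of the same length. CCAAT has 1 match in MIR17HG and 2 in MIR22HG, against a match in 34.6% of all promoters. The GC box GGGCGG, not capitalised above, has 6 matches in MIR17HG, 3 in MIR22HG and 4 in LOC284454, against a match in 45.0% of all promoters. The GC boxes that start 95 and 91 bases before the start of MIR17HG overlap each other. None of the 3 windows holds the full cAMP response element TGACGTCA (1.85% of all promoters), which contains the half-site, the AP-1 letters TGANTCA (7.71%), the CArG box of serum response factor (1.29%), the EGR letters GCGNGGGCG (9.43%) or the E-box CACGTG (7.26%). A match is a run of letters, not a measured binding site.

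The 15 libraries held between 7527026 (TPA+H89 1) and 130075914 (TPA 2) counts. Nothing in the labels says that replicates came from separate cultures, so p-values speak for the variation among these libraries alone, and part of it may be technical. The labels name 3 sequencing platforms without tying them to samples, and the counts themselves fall into 3 classes that do not follow the groups. Class 1 (control 1 and EGF 1) has more genes at a count of 1 than at 2, class 2 has over 10% of counts in the 2 ribosomal RNA rows RNR1 and RNR2 (TPA+H89 1, TPA 1, EGF+H89 1, EGF 2, H89 1 and control 2), and class 3 holds the other 7. Control 1, EGF 1 and TPA 2 stand apart, with median correlations with the other libraries of 0.885, 0.865 and 0.936. TPA+H89 1, the shallowest library, came close to TPA 2 at 0.942 and was kept where these 3 were left out. Fibroblast markers were present in every library, 12 of 12. Of 21 markers of other skin or blood cell types, 8 were at 0 in most libraries, such as KRT5 and KRT14 in 12 of 15, and 9 were at 0 in none, among them KRT10, VWF, MITF, CD68 and 4 of 5 melanocyte markers. Their summed levels ran over 6.83 to 44.5 CPM (keratinocytes), 1.78 to 7.41 (endothelial cells), 23.5 to 53.7 (melanocytes) and 10.98 to 76.8 (leukocytes), and their part in the results was not tested.

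From here on, gene levels are given as CPM, counts relative to the library total after TMM scaling (trimmed mean of M values). They are compared within a gene only, since gene lengths were not used. The row of MIR17HG held 36 to 653 counts per library. It stood at 1.52, 2.16 and 3.36 CPM in the 3 control libraries, and at 2.11, 1.82 and 1.27 CPM in the 3 H89 libraries. With EGF it stood at 7.00, 9.67 and 8.06 CPM, and with TPA at 7.78 and 5.40 CPM. With H89 before the mitogen it stood at 7.14 and 6.38 CPM for EGF and at 14.2 and 8.39 CPM for TPA. Every library with a mitogen lay above every library without one, which restates the choice of members. In these bulk samples, more RNA per cell and more cells that hold it cannot be told apart. The order of the group means ran from TPA+H89 (11.3 ± 4.12 CPM, SD, n = 2) through EGF (8.24 ± 1.34, n = 3), EGF+H89 (6.76 ± 0.543, n = 2) and TPA (6.59 ± 1.68, n = 2) to control (2.35 ± 0.935, n = 3) and H89 (1.74 ± 0.428, n = 3). Neighbours in this order overlapped, except TPA and control. TPA+H89 1, the highest library, is also the shallowest, and its value rests on 78 counts.

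The row of MIR22HG held 902 to 21976 counts per library. In control it varied little, at 76.4, 79.7 and 72.5 CPM. H89 alone gave 108, 71.9 and 76.7 CPM, of which H89 1 was high. EGF gave 139.9, 213 and 169 CPM and TPA gave 142 and 182 CPM. With H89 before the mitogen, EGF gave 199 and 189 CPM and TPA gave 164 and 153 CPM. The mitogen libraries again lay above all others, from 139.9 CPM upwards against at most 108 CPM, which restates the choice of members. The group means ran from EGF+H89 (194 ± 7.06 CPM, SD, n = 2), EGF (174 ± 36.7, n = 3), TPA (162 ± 28.0, n = 2) and TPA+H89 (159 ± 8.12, n = 2) to H89 (85.6 ± 19.8, n = 3) and control (76.2 ± 3.57, n = 3). Of the neighbours, TPA+H89 and H89 did not overlap, and the others did.

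LOC284454 held 118 to 7973 counts per library and spanned the widest fold range of the 3. Control libraries held 2.74, 7.08 and 8.99 CPM and H89 libraries 8.54, 5.65 and 2.51 CPM. EGF libraries held 13.4, 66.0 and 78.6 CPM, with EGF 1 far below the others, and TPA libraries 38.0 and 24.2 CPM. EGF+H89 libraries held 85.7 and 95.2 CPM, and TPA+H89 libraries 76.7 and 102 CPM. Every mitogen library lay above every library without a mitogen, which restates the choice of members. Both TPA+H89 libraries lay above both TPA libraries, as for 10.6% of the genes tested. The group means ran from EGF+H89 (90.5 ± 6.76 CPM, SD, n = 2) and TPA+H89 (89.6 ± 18.2, n = 2) through EGF (52.7 ± 34.5, n = 3) and TPA (31.1 ± 9.74, n = 2) to control (6.27 ± 3.20, n = 3) and H89 (5.57 ± 3.01, n = 3). Neighbours in this order overlapped except TPA and control.

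**Figure D1:**
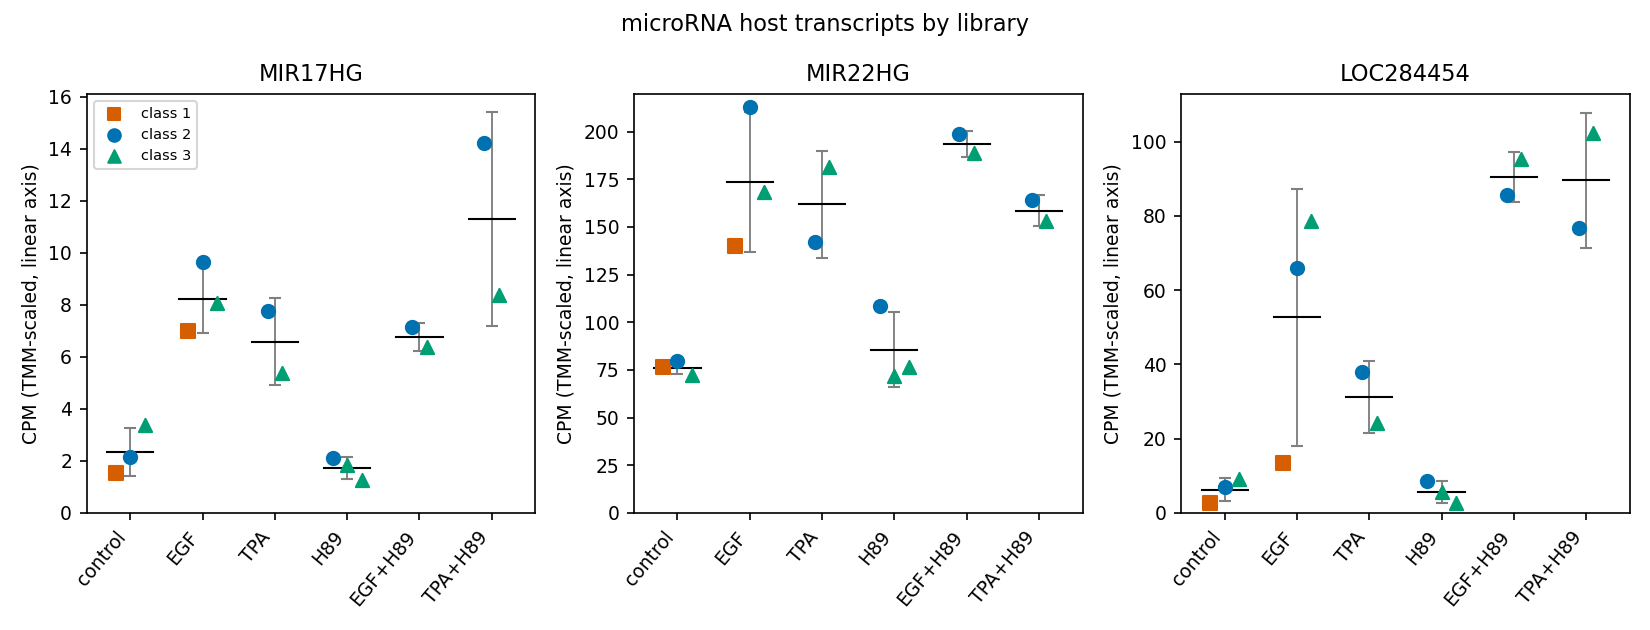
Level of each host transcript in CPM (vertical axis, linear, starting at 0) in the 15 libraries by treatment group. Points are libraries, coloured by count class, and bars are the mean ± SD. In each panel the libraries given EGF or TPA lie above those without, which restates the choice of members. For LOC284454 the class 1 library of EGF lies at 13.4 CPM.

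With H89 present, the libraries given TPA stood above those given H89 alone for 3 of 3 members, as they did for 9.92% of the genes tested, which restates the choice of members. The log2 difference was 2.70 ± 0.39 (SE) for MIR17HG, a 6.48-fold difference, 0.89 ± 0.26 for MIR22HG and 4.02 ± 0.69 for LOC284454. With EGF and H89 against H89 the log2 differences were 1.97 ± 0.38 for MIR17HG, 1.18 ± 0.26 for MIR22HG and 4.03 ± 0.69 for LOC284454. Here too every library with the mitogen lay above every H89 library for 3 of 3 members, against 10.7% of the genes tested. LOC284454 had the largest difference of the 3 with both mitogens and MIR22HG the smallest.

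The same differences were taken within the count classes that contain both groups. Within class 2, which has 1 library of each group, EGF+H89 against H89 differed on the log2 scale by 1.74 for MIR17HG, 0.87 for MIR22HG and 3.32 for LOC284454. Within class 3 the same differences were 2.04, 1.34 and 4.64. TPA+H89 against H89 gave 2.72, 0.60 and 3.16 within class 2, and 2.43, 1.04 and 4.75 within class 3, in the same order of genes. All were above 0, and MIR22HG had the smallest difference in each class.

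The choice of genes that rise with a mitogen does not fix which mitogen gives more, so under H89 the mitogens were compared with each other by a test. These libraries may have taken part in the choice, so the test may not be independent of it. MIR17HG was 0.73 ± 0.42 higher on the log2 scale with TPA than with EGF (95% interval -0.19 to 1.65), and MIR22HG was -0.29 ± 0.28 (-0.90 to 0.33). LOC284454 differed by -0.01 ± 0.72 (-1.57 to 1.55). edgeR's quasi-likelihood test called 0 of 3 members and 0% of the genes tested, with 0 of 3 members and 2.22% of the genes at an unadjusted p under 0.05, and DESeq2 called 0 of 3. The libraries did not overlap for MIR17HG (TPA+H89 above, as for 18.1% of genes) and for MIR22HG (TPA+H89 below, as for 18.4% of genes). A log2 difference of 1 lies inside the intervals for MIR17HG and LOC284454.

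The remaining differences are also descriptions, because the control, EGF and TPA libraries may have chosen the members. EGF against control gave log2 differences of 1.81 ± 0.36 (SE) for MIR17HG, 1.19 ± 0.23 for MIR22HG and 3.07 ± 0.64 for LOC284454. TPA against control gave 1.48 ± 0.38, 1.09 ± 0.26 and 2.31 ± 0.66 in the same order. These comparisons share the control libraries, and the 3 members kept their rank in both, with LOC284454 first and MIR22HG last. Every EGF library lay above every control library for 3 of 3 members, the choice itself, as for 2.97% of the genes tested, and every TPA library did so for 3 of 3, as for 9.6%. Within class 1, which holds 1 control and 1 EGF library, EGF against control was 2.17, 0.87 and 2.28. It was 2.14, 1.42 and 3.21 within class 2 and 1.25, 1.22 and 3.12 within class 3. TPA against control was 1.83, 0.83 and 2.42 within class 2, and 0.68, 1.32 and 1.43 within class 3, whose TPA library is TPA 2.

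Without a mitogen, the H89 libraries overlapped the control libraries for all 3 transcripts. The log2 differences were -0.44 ± 0.35 for MIR17HG, 0.17 ± 0.23 for MIR22HG and -0.18 ± 0.60 for LOC284454. Adding H89 to EGF gave -0.29 ± 0.39, 0.16 ± 0.26 and 0.78 ± 0.65, and adding it to TPA gave 0.77 ± 0.42, -0.03 ± 0.28 and 1.53 ± 0.74. For MIR17HG and LOC284454 both TPA+H89 libraries lay above both TPA libraries, as for 10.6% of the genes tested. EGF+H89 lay above EGF in every library for LOC284454, as for 7.6% of the genes tested, with within-class differences of 0.38 and 0.28. TPA against EGF gave -0.32 ± 0.39, -0.10 ± 0.26 and -0.76 ± 0.67, and within class 3 TPA+H89 against TPA was 0.63, -0.25 and 2.08, against 0.87, 0.21 and 1.01 within class 2.

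**Figure D2:**
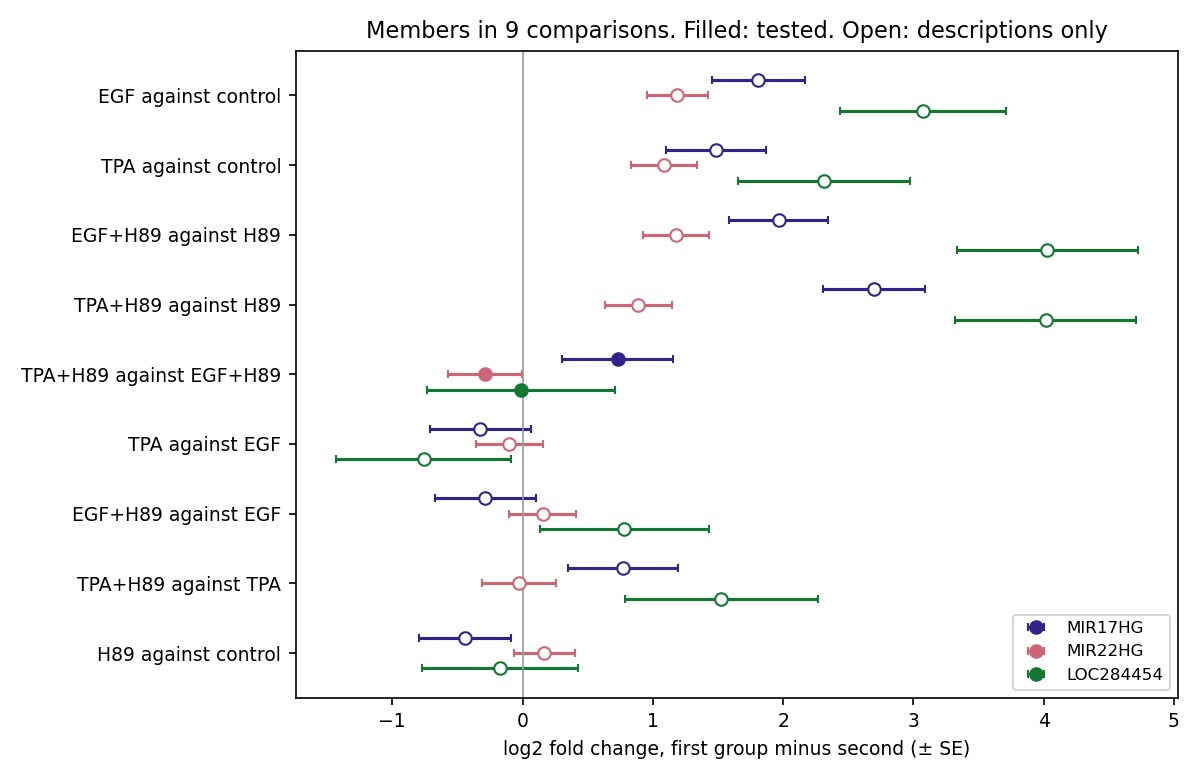
Log2 fold change (horizontal axis, first group minus second) of the 3 host transcripts in 9 comparisons, as points with the standard error. Filled points are the tested comparison and open points are descriptions. Differences of a mitogen against its group without a mitogen lie right of 0 for every member, and those between mitogens lie near 0 for MIR22HG.

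The counts also have rows named for the hairpins inside the hosts. Reads in such a row could come from uncut host RNA or from a cut hairpin, and the counts do not tell them apart. MIR17, MIR18A, MIR19A, MIR20A, MIR19B1 and MIR92A1 inside MIR17HG, and MIR22 inside MIR22HG, were at 0 in all 15 libraries. At 3 counts over 675258135 counts, the floor is 0.00444 CPM. It holds only if reads could be assigned to these rows, which is not known. The rows MIR23A, MIR27A and MIR24-2, of the microRNAs hosted by LOC284454, did hold counts. These hairpins are shown from RefSeq (GRCh38.p14). Where LOC284454 starts and ends in the hg19 annotation used for the counts was not looked up. Whether its row and the hairpin rows cover the same stretch of genome is therefore not known. Capitals mark the mature arms.
MIR23A: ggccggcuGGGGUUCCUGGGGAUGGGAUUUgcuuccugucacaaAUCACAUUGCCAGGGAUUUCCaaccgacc
MIR27A: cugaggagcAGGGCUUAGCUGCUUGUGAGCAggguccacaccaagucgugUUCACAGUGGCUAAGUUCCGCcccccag
MIR24-2: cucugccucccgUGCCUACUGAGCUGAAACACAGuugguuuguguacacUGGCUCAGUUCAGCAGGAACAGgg

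The MIR23A row, named for the hairpin of miR-23a, stood at 0.728 ± 0.428 CPM in control (SD, n = 3) and 0.426 ± 0.377 in H89 (n = 3). It stood at 4.31 ± 0.963 in EGF (n = 3), 4.73 ± 0.238 in EGF+H89 (n = 2) and 4.49 ± 0.680 in TPA+H89 (n = 2). TPA 1 held 2.79 CPM and TPA 2 held 15.5 CPM, from 1870 counts. Its log2 difference was 3.55 ± 0.75 (SE) in EGF+H89 against H89 and 3.48 ± 0.75 in TPA+H89 against H89. That of MIR27A was 4.32 ± 0.89 and 4.10 ± 0.90. The MIR27A row held only 1 to 10 counts in the H89 libraries and 8 in TPA+H89 1. The MIR23A and MIR27A rows belong to microRNAs of a member, so they too are a description. The MIR24-2 row held 0 counts in all 3 H89 libraries, a floor of 0.0199 CPM over 150986256 counts, and no fold against H89 is given for it. It held 6 and 83 counts in EGF+H89, and 0 and 53 counts in TPA+H89, so TPA+H89 and H89 overlapped.

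The split of counts between LOC284454 and its 3 hairpin rows separated 3 libraries from the rest. The hairpin rows together held 65.1% as many counts as LOC284454 in control 1, 71.0% in EGF 1 and 91.3% in TPA 2. In the other 12 libraries they held 5.88% to 14.04%. These 3 libraries are those with the lowest correlations with the rest, and the part of counting or sequencing in this split was not tested. Adding the hairpin rows to the host moved TPA 2 to 46.4 CPM, beside 41.3 CPM in TPA 1, so that TPA 2 was no longer the lower of the pair. EGF 1 moved to 23.0 CPM, still below EGF 2 (72.1 CPM) and EGF 3 (85.1 CPM). The summed rows were 4.52, 7.56 and 9.96 CPM in control, 9.44, 5.98 and 2.87 CPM in H89, 92.4 and 105 CPM in EGF+H89, and 82.2 and 110 CPM in TPA+H89. In the sum, a measure chosen after seeing the data, the log2 difference was 4.02 in EGF+H89 against H89 and 3.99 in TPA+H89 against H89.

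**Figure D3:**
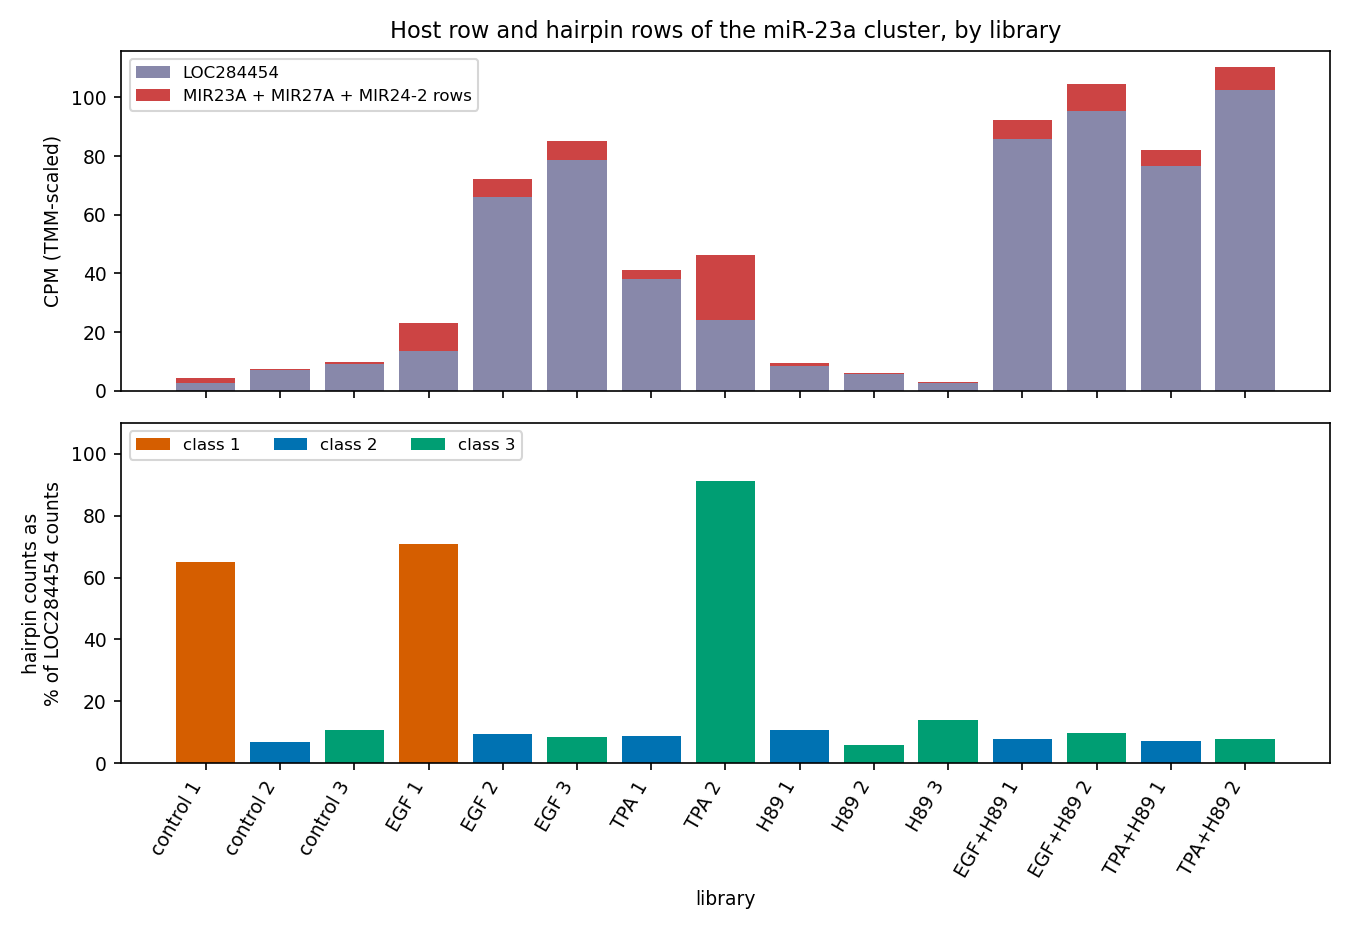
Upper panel, CPM of LOC284454 with the sum of its 3 hairpin rows stacked on it, by library. Lower panel, hairpin counts as a percentage of LOC284454 counts, coloured by count class. Control 1, EGF 1 and TPA 2 stand at 65.1% to 91.3%, and the other 12 libraries at 5.88% to 14.04%.

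The 3 hosts varied together. Over the 15 libraries, Pearson's r of log2 CPM was 0.918 between MIR17HG and LOC284454, 0.895 between MIR22HG and LOC284454 and 0.865 between MIR17HG and MIR22HG. Libraries of a group share a treatment, and all 3 hosts were chosen as higher after a mitogen. Such a choice raises r between them, so these are descriptions. Of the 13457 genes with a mean of at least 1 CPM, the 5 most like MIR17HG were LOC284454, SDE2 (r = 0.904), EML6 (0.901), EGR2 (0.893), an immediate-early transcription factor, and PDP1 (0.891). The 5 most like MIR22HG were EGR2 (0.916), PLK3 (0.911), a stress-responsive kinase, MIR23A (0.897), LOC284454 and CCNL1 (0.893), a cyclin linked to splicing. LOC284454 was most like KLF10 (0.925), a factor known from TGF-beta responses, then MIR17HG, EGR2 (0.905), GLIS2-AS1 (0.901) and MIR22HG. EGR2 was on all 3 lists.

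Genes near the hosts were tested too. For MIR22HG the neighbours with enough counts were TLCD2, PRPF8, WDR81 and SERPINF1, for LOC284454 ZSWIM4, C19orf53, CC2D1A and PODNL1, and for MIR17HG SLITRK6, SLITRK1, GPC6 and TGDS. Those of MIR17HG lie 19 to 78 genes away in the RefSeq order, and this order was taken from GRCh38.p14. edgeR's quasi-likelihood test called 0 of the 12 in EGF+H89 and in TPA+H89 against H89, with 0 at an unadjusted p under 0.05 and 0 called by DESeq2 in both. Their log2 differences ran from -0.36 to 0.35 in EGF+H89 against H89 and from -0.65 to 0.49 in TPA+H89 against H89. PRPF8, a core splicing factor, gave -0.29 and 0.19, and ZSWIM4 gave 0.35 and 0.49. Against control the neighbours ran from -0.48 to 0.82 with EGF and from -0.92 to 1.53 with TPA. The highest was ZSWIM4, 3 genes from LOC284454, at 0.82 ± 0.41 (SE) with EGF and 1.53 ± 0.45 with TPA (adjusted p = 0.211 by edgeR). With TPA it lay above the values of MIR17HG and MIR22HG, and DESeq2 called it. CC2D1A and PODNL1, also next to LOC284454, gave 1.05 ± 0.59 and 0.96 ± 0.52 with TPA. Without TPA 2 these 3 differences were 0.53 for ZSWIM4, -0.15 for CC2D1A and -0.24 for PODNL1, and without TPA 1 they were 2.09 (adjusted p = 0.0159 by edgeR), 1.66 and 1.56.

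Other microRNA hosts were counted as background, from a list that is not complete. It leaves out MIRLET7DHG, by its symbol a microRNA host. That gene had r = 0.930 with MIR17HG after the mean of each count class was taken off. Of 29 other noncoding hosts listed, 27 are in the table and 23 passed the filter. Over all genes tested, edgeR called 0.0269% in EGF+H89 against H89 and 0.0969% in TPA+H89 against H89, with 1.53% and 3.89% at an unadjusted p under 0.05. Of the listed hosts edgeR called 0 in both comparisons, with 1 (DNM3OS) and 0 at an unadjusted p under 0.05 for EGF and TPA, and DESeq2 called 0. A positive log2 difference was seen in 19 of 23 in EGF+H89 against H89 (median 0.27, against -0.02 over all genes tested) and 14 of 23 in TPA+H89 against H89 (median 0.24, against 0.00). MIR3936HG had 1.57 ± 0.75, MIR155HG, the host of miR-155, 1.25 ± 0.63, DLEU1 0.82 ± 0.42 and MIR210HG, the host of the hypoxia-linked miR-210, -0.79 ± 0.43 (SE) with TPA+H89, each with adjusted p = 1 by edgeR. MIR155HG stood at 1.53 ± 1.18 CPM in TPA+H89 (SD, n = 2) and 0.597 ± 0.133 in H89 (n = 3). Against control, 22 of 23 were positive with EGF (median 0.33, against 0.02) and 8 of 23 with TPA (median -0.11, against -0.02). In these edgeR called 0, against 0.0269% and 0.415% of the genes tested, and DESeq2 called 0. An unadjusted p under 0.05 was reached by 2 with EGF (MEG8 and MIR3936HG) and by 1 with TPA (MIR3936HG). Over all genes tested, the shares at that p were 1.63% and 13.2%.

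Coding hosts carry microRNAs in introns of protein-coding genes. All 32 listed passed the filter, and in both comparisons with H89 edgeR called 0, DESeq2 called 0 and 0 had an unadjusted p under 0.05, with medians of -0.10 in EGF+H89 against H89 and -0.03 in TPA+H89 against H89. SMC4, a condensin subunit that hosts miR-15b and miR-16-2, gave -0.44 ± 0.32 (SE) with TPA+H89, CTDSP1 -0.52 ± 0.44, WDR82 0.29 ± 0.25 and ZRANB2 0.43 ± 0.41. Against control, 13 of 32 were positive with EGF and 16 of 32 with TPA, and edgeR called 0 in both. DESeq2 called 0 with EGF and 1, SREBF1, with TPA. An unadjusted p under 0.05 was reached by 0 with EGF and by 4 with TPA (MCM7, SREBF1, PANK3 and EGFL7). Over all genes tested these shares were 1.63% and 13.2%.

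Genes that make microRNAs or carry out their effect passed the filter in 20 of 20 cases. In both comparisons with H89 edgeR called 0, DESeq2 called 0 and 0 had an unadjusted p under 0.05. LIN28A and LIN28B had no count in at least 1 of the groups compared, with LIN28B at 0 in both H89 and EGF+H89, and of the other 18 there were 4 positive in EGF+H89 against H89 (median -0.05) and 9 positive in TPA+H89 against H89 (median 0.02). RAN, the GTPase that works with exportin-5, gave 0.68 ± 0.32 (SE) in TPA+H89 against H89, AGO2, the slicing Argonaute, 0.41 ± 0.32, and XPO5, exportin-5 itself, -0.26 ± 0.22. Against control, 8 of 20 were positive with EGF (median -0.05) and 11 of 20 with TPA (median 0.12). In both, edgeR and DESeq2 called 0. An unadjusted p under 0.05 was reached by 0 with EGF and 2 with TPA (TARBP2 and PRKRA). Over all genes tested these shares were 1.63% and 13.2%.

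Of 18 textbook targets of the hosted microRNAs, edgeR called 0 with H89, with 0 at an unadjusted p under 0.05 for EGF and 2 for TPA, of which DESeq2 called 1, SIRT1. Positive differences numbered 8 of 18 in both comparisons (medians -0.03 and -0.06). SIRT1 stood at 40.6 CPM in both TPA+H89 libraries against 19.6 ± 2.65 CPM in H89 (SD, n = 3), a log2 difference of 1.05 ± 0.23 (adjusted p = 0.210 by edgeR). BCL2L11, which encodes the pro-apoptotic BIM, gave 1.13 ± 0.35 (adjusted p = 0.842 by edgeR), CTGF 0.92 ± 0.72 and TGFBR2 -0.36 ± 0.25. Against control, 11 of 18 were positive with EGF (median 0.08, against 0.02 over all genes tested). With TPA 15 of 18 were positive (median 0.40, against -0.02). There edgeR called 0 in both, and DESeq2 called 0 with EGF and 2 with TPA, CDKN1A and SIRT1. An unadjusted p under 0.05 was reached by 1 with EGF (SIRT1) and 3 with TPA (CDKN1A, CTGF and SIRT1). Over all genes tested these shares were 1.63% and 13.2%.

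Of 13 transcription factors described upstream of these hosts, 12 passed the filter and edgeR called 0 with H89. An unadjusted p under 0.05 was reached by 3 with EGF (EGR1, FOS and JUN) and by 4 with TPA (these and MYC), and DESeq2 called 0 with EGF and 2 with TPA, EGR1 and FOS. FOS gave 4.53 ± 1.02 in TPA+H89 against H89 (adjusted p = 0.253 by edgeR) and 2.79 ± 0.96 in EGF+H89 against H89. EGR1 gave 3.58 ± 0.73 (adjusted p = 0.144 by edgeR) and 2.43 ± 0.71, and MYC gave 1.02 ± 0.37 and 0.75 ± 0.37. JUN gave 1.13 ± 0.47 and 1.23 ± 0.47. The medians of the list were 0.26 with TPA+H89 and -0.10 with EGF+H89. Against control, where edgeR called 0.415% of the genes tested with TPA, EGR1 was called with TPA, with a log2 difference of 4.60 ± 0.76 (adjusted p = 0.0209 by edgeR's quasi-likelihood test). Its difference was between 4.19 and 5.11 in 25 other settings, of which 21 called it, and the call was lost with only the compared groups in the fit and without control 2, control 3 or TPA 2 (adjusted p from 0.114 to 0.157 by edgeR). The 77 genes called with TPA against control became 13 without control 2 or without TPA 2 and 1187 without TPA 1, and ran from 0 to 492 in the other settings.

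**Figure D4:**
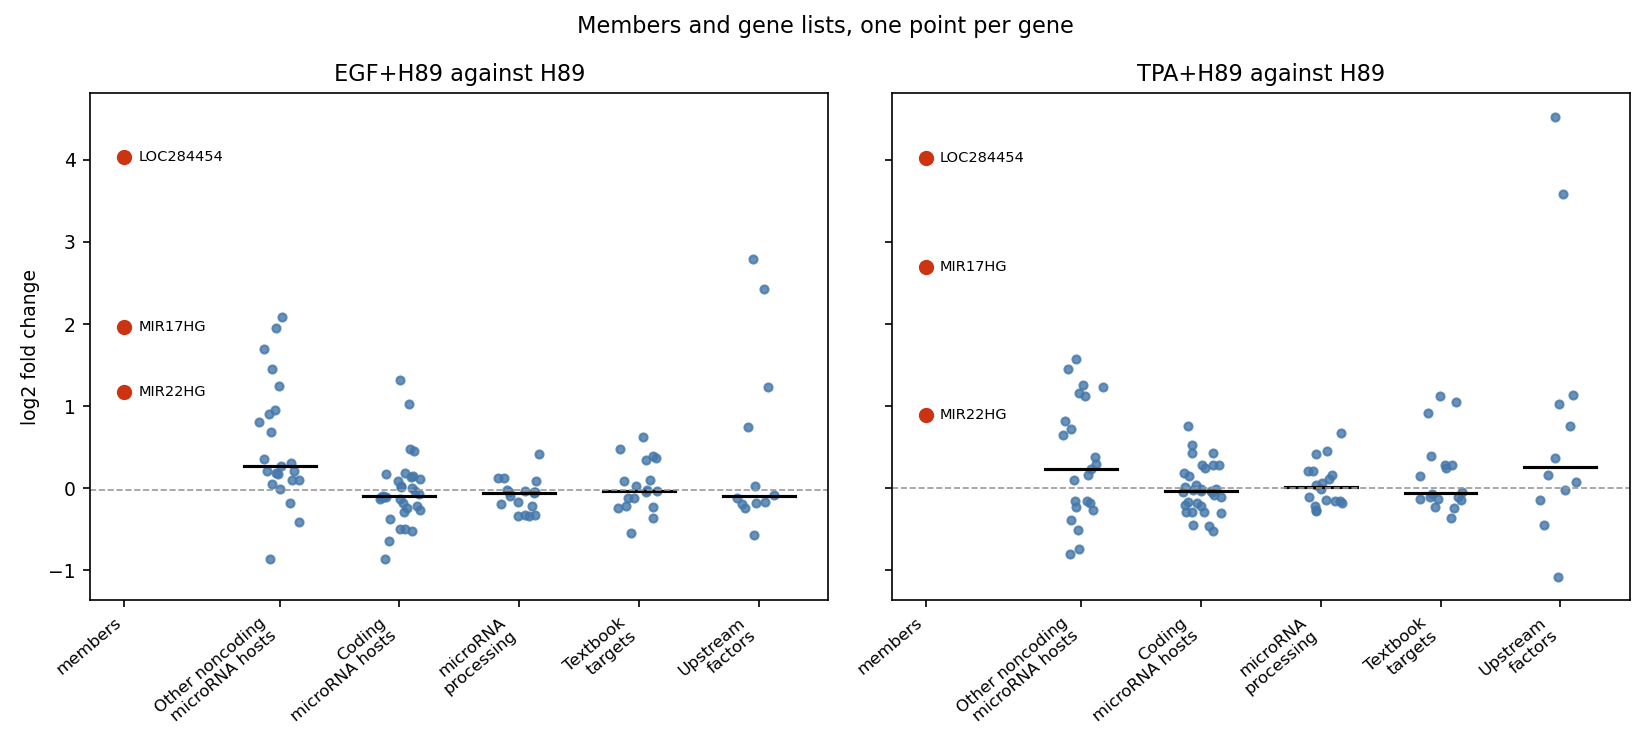
Log2 fold change (vertical axis) of the 3 members (red) and of each gene of 5 lists (blue, black bar for the median) in EGF+H89 against H89 and TPA+H89 against H89. The dashed line is the median of all genes tested, and genes with no count in a group are left out. LOC284454 lies at about 4.03 and 4.02, above the points of every list except FOS with TPA+H89.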

How the data were processed

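RNA was measured by total RNA sequencing after depletion of ribosomal RNA, with strand-specific libraries, per the labels' protocols. The deposited values are raw counts, 1 row for each of 28374 gene symbols and 1 column for each of 16 samples. The submitters' processing notes name HOMER, hg19 and GRCh37. Not given in the sources used here are the aligner, the annotation version, whether strand was used in counting and how hairpins inside hosts were treated, so counts of overlapping rows may be split in a way that is not known. Control 3 and control 4 were equal at 100% of genes and were counted as 1 library, while other pairs were equal at 0.252% to 3.77%.

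The quasi-likelihood test of edgeR 4.0.16 (R 4.3.3) was used on 18575 genes, the 3 members among them, that passed filterByExpr at a smallest count of 10. The model held all 15 libraries, TMM scaling and 1 coefficient for each group, and Benjamini-Hochberg adjustment ran over every gene tested, with calls at 0.05. Intervals are 95%, from the test's t quantile. Floors at 0 counts use 3 counts and, as intervals do, leave out other sources of error. A prior count of 2 was added before log2 CPM were correlated.

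The members and gene lists were chosen with earlier results of these data known. The rule of the members names no contrast and covers all 6 groups, so a mitogen with H89 against H89, planned as a test, is given for the members as a description without a p-value. The other genes named were the 5 of highest correlation with each member, 2 neighbours on each side with at least 1 CPM, up to 4 examples per list by p in TPA+H89 against H89, list genes called in any comparison, and genes counted at an unadjusted p or by DESeq2, which were chosen after their values were seen. Sequences came from RefSeq tables on GRCh38.p14, in which all 3 promoters were found, LOC284454 by gene number, and motifs were searched in Python 3.11.15 on both strands. Figures were drawn with matplotlib 3.10.9.

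Alternatives were DESeq2 1.42.0, size factors, total counts, other filters, a term for count classes, a block for sets of sample names, only the compared groups, both control copies, each library left out, and the 3 libraries that stand apart left out. The sum of LOC284454 with its hairpin rows was added after seeing the data. The edgeR fit was first checked on simulated counts holding known changes, in TPA+H89 against H89. DESeq2 and the other comparisons were not checked in this way.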

Additional observations from a re-analysis of the deposited data

How the results depend on the processing

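The direction of all 3 members held in all settings run for a mitogen with H89 against H89 and for a mitogen against control. These differences are descriptions. In EGF+H89 against H89 MIR17HG had 2.00 with DESeq2, 1.93 with the class term, 1.78 with the replicate block and 1.97 without the 3 libraries that stand apart, and MIR22HG had 1.20 with DESeq2. LOC284454 had 4.05 with DESeq2, 4.04 with no filter, 4.04 with the class term, 3.92 with the block, 4.06 with only the compared groups, 4.05 without the 3 libraries and 4.02 with the hairpin rows added. In TPA+H89 against H89 LOC284454 had 4.002 with DESeq2, 3.97 with no filter, 4.03 at 10 counts or more in 50% of libraries, 4.04 with the class term, 4.33 with the block, 4.02 with both control copies, 4.03 without the 3 libraries and 3.99 with the hairpin rows. MIR17HG there had 2.46 with total counts, which move the median of all genes to -0.15, and 2.67 with only the compared groups. LOC284454 in TPA+H89 against EGF+H89 turned to 0.41 under the replicate block. Without the 3 libraries MIR22HG moved to 0.90 in TPA against control, 0.16 in TPA+H89 against TPA and -0.42 in TPA against EGF, and with the hairpin rows LOC284454 moved to 1.14 in TPA+H89 against TPA. The cause was not tested.

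Genes called in EGF+H89 against H89 (5) became 55 with DESeq2, 1 with total counts, 9 with no filter, 50 with the class term, 44 with the block, 49 with only the compared groups and 45 without the 3 libraries. In TPA+H89 against H89 (18) they became 80, 1 with total counts, 80 with the class term, 76 with the block and 79 without the 3 libraries. In TPA+H89 against EGF+H89 the block gave 1. The block stands for sets of sample names, which the labels do not tie to a day or culture.

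Leaving out each library in turn gave 2.29 to 3.03 for MIR17HG in TPA+H89 against H89, 3.68 to 4.47 for LOC284454 in EGF+H89 against H89, 3.66 to 4.46 in TPA+H89 against H89 and -0.24 to 0.19 in TPA+H89 against EGF+H89, where it turned positive without EGF+H89 2 (0.07) or TPA+H89 1 (0.19). It gave -0.63 to -0.081 for MIR17HG in TPA against EGF, and for MIR22HG 0.90 to 1.22 in TPA against control and -0.20 to 0.16 in TPA+H89 against TPA. Genes called ran from 0 to 9 in EGF+H89 against H89 and from 0 to 28 in TPA+H89 against H89, with 0 without H89 2 or H89 3 and 1 without H89 1. A group left with 1 library was assumed to vary like the others. Levels per length were not run, since gene lengths were not used here.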

Other observations

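After the mean of each count class was taken off, the genes most like the members changed in part. MIR22HG was then most like PLK3 (r = 0.964), MIR27A (0.954), MIR23A (0.942), CSRNP1 (0.931), an early nuclear response gene, and SPHK1 (0.930), a sphingosine kinase. MIR17HG was most like LOC284454 (0.936), a LINC-PINT row (0.933), MIRLET7DHG (0.930), SERTAD3 (0.919) and EML6 (0.912). MIRLET7DHG, by its symbol a microRNA host, was not among the hosts listed as background. LOC284454 was most like MIR17HG (0.936), KLF10 (0.930), GLIS2-AS1 (0.927), PLK3 (0.923) and SNAI1 (0.921). These are descriptions over 15 libraries, with no test, and the choice of the members raises r between them. The rows of all 1759 microRNA genes in the table together held 0.00498% to 0.0434% of a library's counts, with 0.0379% to 0.0434% in the 6 class 2 libraries.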
